A study of Mus musculus with 3 samples.

Results

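The genes described here carry glutamate into synaptic vesicles, take it up from the extracellular space, or turn it over in the cycle that passes glutamate and glutamine between neurons and astrocytes. They were chosen by symbol, with earlier results of these data known. They are 8 genes, each found as 1 of the 32531 rows that name a gene in the count tables. Of these, 3 encode vesicular transporters (Slc17a7, Slc17a6 and Slc17a8), 3 encode plasma membrane transporters (Slc1a1, Slc1a2 and Slc1a3) and 2 encode enzymes (Glul and Glud1). Their values come from translating ribosome affinity purification (TRAP), in which an antibody against a fluorescent tag on the ribosome pulls down ribosomes together with the messenger RNA they hold. The series has 1 group of 3 libraries, replicates 1 to 3, from immunopurified RNA of the cortex of untreated adult Kcnip2-TRAP NIDA115 mice, strain C57BL/6J. The line carries a transgene named Kcnip2-EGFP/Rpl10a, a green fluorescent fusion to the ribosomal protein L10a named for Kcnip2, which encodes a potassium channel subunit, and it is a single transgenic line. Without an input, wild-type or second-line library here, the values are levels inside the immunoprecipitate, and RNA of tagged cells cannot be told apart from RNA carried along.

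In textbook accounts, neurons fill vesicles with glutamate through vesicular transporters, and astrocytes remove most released glutamate through sodium-coupled transporters on their surface. Glutamine synthetase in astrocytes joins ammonia to glutamate, and the glutamine is exported to neurons, where it becomes glutamate again. Glutamate dehydrogenase connects the glutamate pool to the citric acid cycle.

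Depth was 11602248, 13635132 and 14174384 gene counts in replicates 1, 2 and 3. Levels are CPM, counts per 1e+06 counts of the library size scaled by edgeR's TMM factors, and CPM divided by the kilobases of all annotated exons of the gene (CPM per kb) for ratios, shares and the order of genes. The highest and lowest genes of a marker list, and sums over a list, are by CPM, which grows with gene length. On the CPM scale a count of 0 allows up to 0.256, 0.222 and 0.213 in replicates 1, 2 and 3, for counting error only. A mean is followed by its SD over n = 3 libraries. Whether each library is a separate animal is not stated in the labels, so every p reflects the spread of the libraries alone, and that spread may be technical. Neuronal markers were the most abundant of the marker lists: 11 pan-neuronal genes, with Snap25 highest at 33507 and Tubb3 lowest at 66.4 CPM, summed to 41324, 44346 and 47717 CPM. The 10 GABAergic neuron genes, with Dlx6 lowest at 2.52 CPM, were all detected. Of 11 glutamatergic neuron genes 10 were detected, with Camk2a highest at 6526 CPM and Emx1 below detection at 0.710 CPM. Lists of glial and vascular genes were lower and are given further on beside the members.

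All 8 genes were detected, meaning at least 1 CPM in each library, against 37.3% of all 32531 rows and 64.9% of the 18703 genes with a read. On the CPM scale they ranged from Slc1a2 at 1332 ± 297 and Glul at 1324 ± 318 CPM to Slc17a8 at 3.31 ± 0.394 CPM, and 5 of the 8 were at 100 CPM or more in every library. Per kilobase, Glul stood above 99.6% of the tested genes with a known exon length, and Slc17a8 above 9.41% of them.

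**Figure D1:**
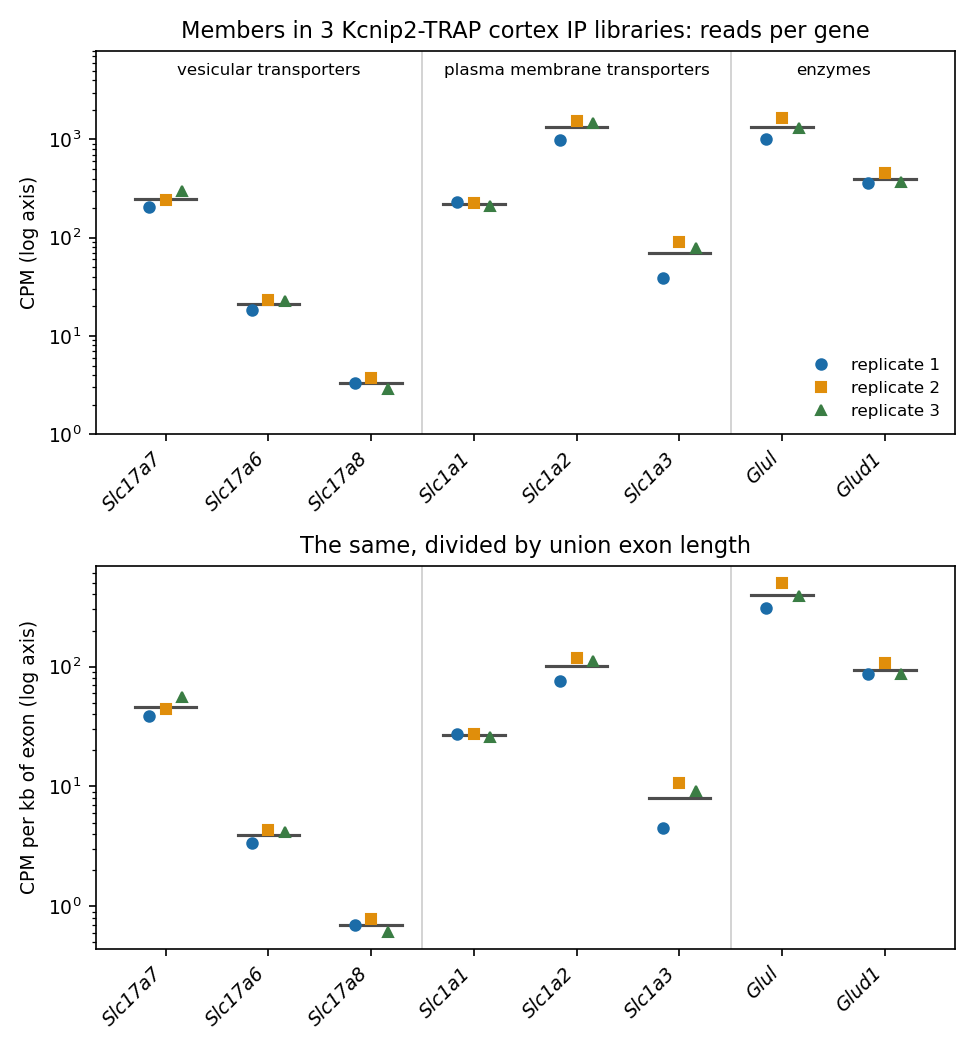
Level of each of the 8 genes in the 3 Kcnip2-TRAP cortex IP libraries, as CPM in the upper panel and as CPM per kb of exon in the lower panel, both on log axes. Points are single libraries and horizontal bars are their means. Glul and Slc1a2 have close CPM values, whereas per kilobase Glul lies above Slc1a2 in all 3 libraries.

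Among the vesicular transporters, Slc17a7 held most of the signal. Slc17a7 (chr7:45163949-45176142 on the plus strand of GRCm38, the assembly that mm10 names) encodes VGLUT1, the vesicular transporter of most cortical excitatory terminals. It had 38.5, 44.7 and 55.9 CPM per kb in replicates 1, 2 and 3, from 2435, 3263 and 4251 counts, so that replicate 3 was highest and replicate 1 lowest. Its share of the summed CPM per kb of the 3 vesicular transporters was 90.4%, 89.7% and 92.1%, again highest in replicate 3. The RefSeq promoter window of Slc17a7, from 250 bases before to 50 after its start (chr7:45163671-45163970, plus strand, GRCm38.p6), is shown because this gene sets the vesicular total. Capitals mark GC boxes (GGGCGG on either strand).
Slc17a7 promoter: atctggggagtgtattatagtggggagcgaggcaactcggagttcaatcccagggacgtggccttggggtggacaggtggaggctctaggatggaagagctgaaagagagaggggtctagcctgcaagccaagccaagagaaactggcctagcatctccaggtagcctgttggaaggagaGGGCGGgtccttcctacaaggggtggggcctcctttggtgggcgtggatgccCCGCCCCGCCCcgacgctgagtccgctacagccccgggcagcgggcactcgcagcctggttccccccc
The window holds 3 GC boxes, and those on the reverse strand overlap by 1 base. A GC box occurs in 35.7% of the 32851 RefSeq windows of this length, and the window has 63.7% G or C against a median of 52.7% over all windows. On neither strand was there a CCAAT box (CCAAT, present in 37.4% of windows), a TATA box (TATAAA, in 13.6%) or a cyclic AMP response element (TGACGTCA, in 1.79%).

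Slc17a6 (chr7:51622006-51671119, plus strand) encodes VGLUT2, which is typical of thalamic and other subcortical neurons. It had 3.36, 4.34 and 4.17 CPM per kb from 213, 317 and 318 counts, or 7.83 ± 0.914% of the vesicular sum. The 8 thalamic genes listed ranged up to Rora at 277 CPM, a gene that cortical neurons also use, and Gbx2 had 0 counts in every library; 6 of the 8 were detected. Slc17a8 (chr10:89574020-89621253, minus strand) encodes VGLUT3, known from serotonergic neurons and from interneurons that make cholecystokinin. It had 39, 50 and 41 counts, or 3.32, 3.69 and 2.90 CPM, and made up 1.41 ± 0.348% of the vesicular sum per kilobase. Its coefficient of variation over libraries, 11.9%, was below the 15.2% that counting error alone gives at this depth, so no difference between libraries was detectable. Per kilobase, Slc17a6 lay 5.43-fold above Slc17a8 and Slc17a7 lay 62.8-fold above it, each in 3 of 3 libraries. Of the 6 serotonergic genes listed 2 were detected, Maob highest at 13.3 CPM and Slc18a2 at 8.80 CPM. Tph2 had 16, 0 and 0 counts and Ddc had 4, 4 and 12 in replicates 1, 2 and 3, and Slc6a4 and Fev had 0 counts. Of the 6 genes listed for CCK and VIP interneurons 5 were detected, with Cck highest at 575 CPM and Sncg lowest with 3 counts in all.

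These 3 genes are close relatives, and reads could in principle be split between them. The longest exact run of bases that their coding sequences share shows how far they can be separated.
Slc17a7 and Slc17a6: aacctgggcgtggccatcgtg
Slc17a6 and Slc17a8: tcatgagcggcctcggcttctgcat
The runs are 21 and 25 bases long, and that of Slc17a7 and Slc17a8 is 17 bases. No run of 50 bases in the longest coding transcript of Slc17a7 or Slc17a6 occurs in another annotated gene, and 1.52% of those of Slc17a8 do. The read length is not stated in the labels.

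The plasma membrane transporters were led by Slc1a2 (chr2:102658659-102790784, plus strand), which encodes GLT-1, the main glutamate uptake carrier of forebrain astrocytes, also present in some axon terminals. Slc1a2 had 75.6, 118 and 111 CPM per kb from 11650, 20903 and 20597 counts, so replicate 1 stood below the other two. It made up 70.2%, 75.5% and 76.1% of the summed CPM per kb of the 3 carriers in replicates 1, 2 and 3. Its mean share of 73.9 ± 3.28% was 60.0% when the longest coding transcript replaced the exon union as the divisor.

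Slc1a1 (chr19:28835049-28913960, plus strand) encodes EAAC1, the glutamate carrier of neuronal cell bodies and dendrites. It was the steadiest of the 8 genes, at 228, 228 and 212 CPM, with a coefficient of variation of 4.19% against a median of 15.2% over the 12509 genes tested. Per kilobase it averaged 26.96 ± 1.13 CPM, and its share of the family was 25.7%, 17.7% and 17.6%, highest in replicate 1, where Slc1a2 and Slc1a3 were lowest. Its exons overlap those of 4430402I18Rik on the opposite strand over 2631 of 8257 bases (31.9%). Because the labels do not say how strand was handled, reads in that overlap cannot be assigned, and 4430402I18Rik itself had 126, 103 and 141 counts.

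Slc1a3 (chr15:8634124-8710764, minus strand) encodes GLAST, the carrier of radial glia, cerebellar Bergmann glia and cortical astrocytes. It had 38.5, 90.5 and 78.3 CPM from 452, 1225 and 1105 counts, the widest spread among the 8 genes, with a coefficient of variation of 39.3%. Replicate 1 was far below replicates 2 and 3, which lay close together. Slc1a2 lay 13.1-fold above Slc1a3 per kilobase (log2 ratio 3.71 ± 0.31, in 3 of 3 libraries, and 2.85 with the longest coding transcript as divisor), and Slc1a3 made up 4.19%, 6.81% and 6.28% of the carriers' sum. The RefSeq promoter window of Slc1a3 (chr15:8710758-8711057, minus strand, GRCm38.p6) is shown because this gene varied most between libraries. Capitals mark CCAAT boxes, GC boxes and the TATA box, with letters as above, on either strand.
Slc1a3 promoter: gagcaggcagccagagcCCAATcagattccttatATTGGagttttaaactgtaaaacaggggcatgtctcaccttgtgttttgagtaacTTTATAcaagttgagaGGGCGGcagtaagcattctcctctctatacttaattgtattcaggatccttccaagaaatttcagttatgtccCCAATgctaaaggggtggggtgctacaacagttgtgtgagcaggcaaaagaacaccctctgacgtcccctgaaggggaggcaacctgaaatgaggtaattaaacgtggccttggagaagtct
It holds 3 CCAAT boxes, 1 GC box and 1 TATA box, with 45.3% G or C. The coding sequences of the 3 carriers share exact runs of at most 20 bases, so no longer exact run joins them.

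**Figure D2:**
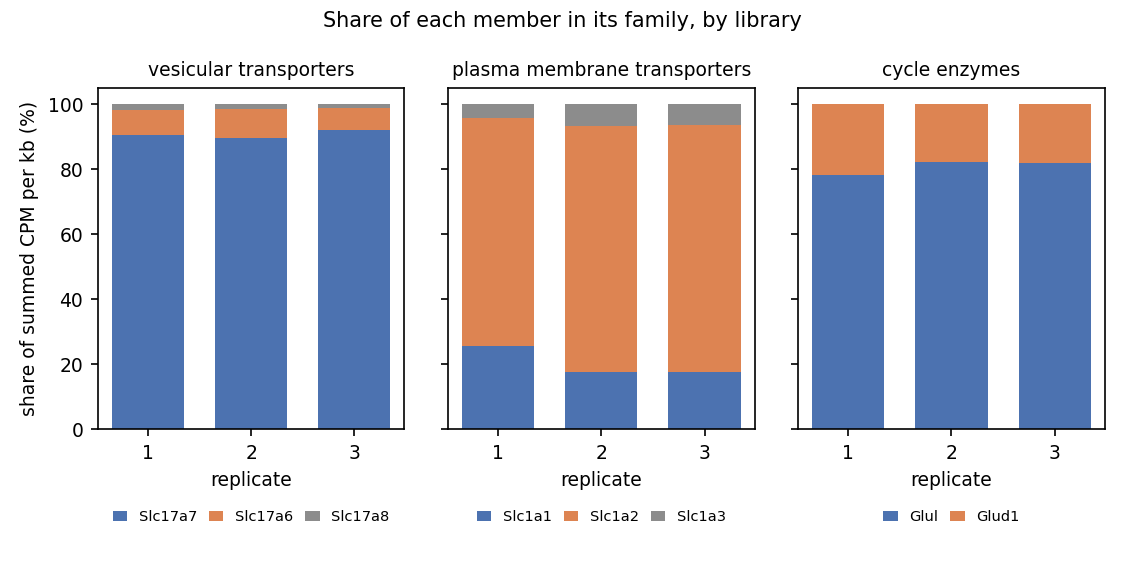
Share of each gene in the summed CPM per kb of its family in each library, for vesicular transporters, plasma membrane transporters and enzymes. Bars are single libraries and add up to 100% of the family. Slc17a7 takes 89.7% to 92.1% of its family, Slc1a2 takes 70.2% to 76.1% and Glul takes 78.1% to 82.2%.

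Of the enzymes, Glul (chr1:153899944-153909723, plus strand) encodes glutamine synthetase, which astrocytes and some oligodendrocytes use to make glutamine. Glul had 307, 498 and 389.8 CPM per kb from 11986, 22419 and 18284 counts, with replicate 2 highest and replicate 1 lowest. Its promoter window (chr1:153899679-153899978, plus strand, GRCm38.p6) is shown because Glul had the highest level per kilobase and, like Slc1a3, was lowest in replicate 1. Capitals mark CCAAT boxes and the GC box on either strand.
Glul promoter: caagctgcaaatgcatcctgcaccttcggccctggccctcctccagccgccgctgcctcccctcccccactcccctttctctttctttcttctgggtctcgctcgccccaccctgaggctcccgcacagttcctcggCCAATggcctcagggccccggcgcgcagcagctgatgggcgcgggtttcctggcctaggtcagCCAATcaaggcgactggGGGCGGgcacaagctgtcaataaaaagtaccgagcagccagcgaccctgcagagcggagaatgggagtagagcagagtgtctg
It holds 2 CCAAT boxes and 1 GC box, with 64.3% G or C. The Slc1a3 and Glul windows thus both hold a GC box and CCAAT boxes, present in 35.7% and in 37.4% of all windows, each motif taken alone. The Slc17a7 window holds no CCAAT box, although Slc17a7 was also lowest in replicate 1. Whether these motifs go with the pattern over libraries was not tested. The Slc1a2 window holds 0 GC boxes and 0 CCAAT boxes. It is not shown because it lies 47779 bases from the annotated gene start. No window of the 3 shown holds the cyclic AMP response element.

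Glud1 (chr14:34310727-34345265, plus strand) encodes mitochondrial glutamate dehydrogenase, which converts glutamate to alpha-ketoglutarate in neurons and glia. It had 86.3, 108 and 86.95 CPM per kb from 4261, 6168 and 5167 counts, with replicate 2 above the other two. Glul lay 4.19-fold above Glud1 (log2 ratio 2.07 ± 0.20, in 3 of 3 libraries), or 80.7 ± 2.24% of their sum. Both genes have pseudogenes: 412 of the 2743 50-base runs of the Glul transcript occur in other annotated genes, most of them in the pseudogene Glns-ps1, and 8.17% of those of Glud1 do. Reads that did not align uniquely were tallied apart from genes in the files, so they are missing from both.

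Over all 8 genes the order per kilobase was Glul, Slc1a2, Glud1, Slc17a7, Slc1a1, Slc1a3, Slc17a6 and Slc17a8. Of the 28 pairs, 27 kept the same order in 3 of 3 libraries with a mean log2 ratio over 2 SD. That number was 24 with the longest coding transcript as divisor, 25 with no division by length, 25 without replicate 2 and 26 without replicate 3. The exception was Slc1a2 over Glud1, with log2 ratios of -0.19, 0.12 and 0.35, so per kilobase of exon these neighbours do not differ beyond their spread (exact two-sided sign-flip test, p = 0.75). For every other pair the exact p was 0.25, the smallest that 3 libraries allow, and 0.259 after Benjamini-Hochberg adjustment over the 28 pairs.

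The gaps between neighbours were uneven. Glul lay 3.93-fold above Slc1a2 per kilobase (log2 ratio 1.97 ± 0.14), whereas with no division by length the log2 ratio was -0.01 ± 0.14. Glud1 lay 2.04-fold above Slc17a7 (1.03 ± 0.34), and Slc17a7 lay 1.70-fold above Slc1a1 (0.77 ± 0.33). Divided by the longest coding transcript, these 2 log2 ratios were 0.45 ± 0.34 and 0.53 ± 0.33, neither over 2 SD. The log2 ratio of Slc1a2 over Slc17a7, 1.12 ± 0.24 with the exon union, was 0.41 ± 0.24 with the longest coding transcript, also within 2 SD. With no division by length, Glud1 over Slc17a7 was 0.67 ± 0.34 and Slc17a7 over Slc1a1 was 0.15 ± 0.33, and without replicate 2 Slc17a7 over Slc1a1 was 0.80 ± 0.46, again within 2 SD. Slc1a1 lay 3.54-fold above Slc1a3 (1.82 ± 0.68). Slc1a3 lay 1.92-fold above Slc17a6 (0.94 ± 0.46), and this ratio was within 2 SD without replicate 2 (0.77 ± 0.50) or without replicate 3 (0.85 ± 0.61).

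Gad1, which makes GABA, was set beside Slc17a7 in the same libraries, as 1 gene of each kind and not as a balance of transmitters. Per kilobase of exon the ratio of Gad1 to Slc17a7 was 1.68, 1.21 and 0.968 in replicates 1, 2 and 3. On that scale the order of the 2 genes was not the same in all libraries. With no division by length Gad1 was higher in each library, at 493, 414 and 413 CPM against 208, 241 and 301 CPM. The order of the 2 genes thus depends on the divisor, and it also depends on the GABAergic gene taken. Per kilobase Gad2 was above Slc17a7 in each library, at 133, 126 and 133 CPM per kb in replicates 1, 2 and 3. Slc32a1 had 51.3, 42.1 and 38.2 CPM per kb, above Slc17a7 in replicate 1 only.

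The genes known from astrocytes varied most between the libraries. In replicate 2 against replicate 1, Slc1a3 was 2.35-fold, Glul 1.62-fold and Slc1a2 1.55-fold higher. In replicate 3 against replicate 1, the same genes were 2.03-fold, 1.27-fold and 1.47-fold higher. Of the 8 genes 6 were lowest in replicate 1, against 36.6% of all genes tested, and Slc17a8 and Slc1a1 were lowest in replicate 3. The median coefficient of variation of the 8 genes was 16.1%, close to the 15.2% over all genes tested.

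edgeR's quasi-likelihood fit compared each gene's variation between libraries with the trend of genes at the same level. At an adjusted p of 0.05 it called 11 of 12509 genes (0.0879%) and 0 of the 8 genes. At an unadjusted p of 0.05 it passed 5.72% of all genes and 4 of the 8, namely Slc1a3, Glul, Slc1a2 and Slc17a7. The edgeR adjusted p was 0.105 for Slc1a3, 0.509 for Glul, 0.530 for Slc1a2 and 0.823 for Slc17a7. Slc1a3 passed in the same edgeR test without replicate 3 (adjusted p = 0.0170) and without the count filter (adjusted p = 0.00232), but over all alternatives its adjusted p reached 0.994, without replicate 1. DESeq2's dispersion outlier flag marked Slc1a3 and none of the other 7 genes.

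Astrocyte markers other than the members also had their lowest summed level in replicate 1. The sum was 1008, 1566 and 1329 CPM over 12 genes, all 12 detected. Of the 12, 8 (66.7%) were lowest in replicate 1, against 36.6% of all genes tested. Among tested genes of other lists this share was 90% for glutamatergic neurons, 72.7% for pan-neuronal genes and 66.7% for oligodendrocyte precursors. It was 10% for GABAergic neurons, so being lowest in replicate 1 was not particular to astrocyte genes. Aldoc, a glycolytic enzyme, was the highest at 403, 686 and 497 CPM, and Atp1b2, a sodium pump subunit, followed at 345, 523 and 507 CPM. Gfap, the astrocyte intermediate filament, had 14.8, 11.8 and 11.5 CPM, and Aldh1l1, a folate enzyme, was the lowest at 9.80, 5.46 and 7.08 CPM, both highest in replicate 1. No astrocyte marker was at 0, and none passed the edgeR test after adjustment. At an unadjusted p under 0.05 that test passed 3 of the 12, against 5.72% of all genes tested.

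Aldoc and Atp1b2 made up 74.2%, 77.2% and 75.5% of the astrocyte sum, so values set against it mostly follow these 2 genes. Glul was 101%, 106% and 97.5% of it, and Slc1a2 was 98.5%, 98.6% and 110%, so the highest library exceeded the lowest 1.08-fold and 1.12-fold on this scale, against 1.62-fold and 1.55-fold on the CPM scale. Slc1a3 was 3.82%, 5.78% and 5.89% of the sum, and its highest library still exceeded the lowest 1.54-fold. Set against the other 10 astrocyte genes alone, a choice made after the values were seen, the highest library exceeded the lowest 1.18-fold for Glul, 1.18-fold for Slc1a2 and 1.71-fold for Slc1a3. Of those 10 genes 6 were lowest in replicate 1, against 36.6% of all genes tested. For Slc1a1 the values were 22.6%, 14.5% and 15.9%, a wider spread than its CPM had. The part that astrocyte RNA had in the differences between libraries was not tested, and in bulk material fewer cells of a type and less RNA per cell cannot be told apart.

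**Figure D3:**
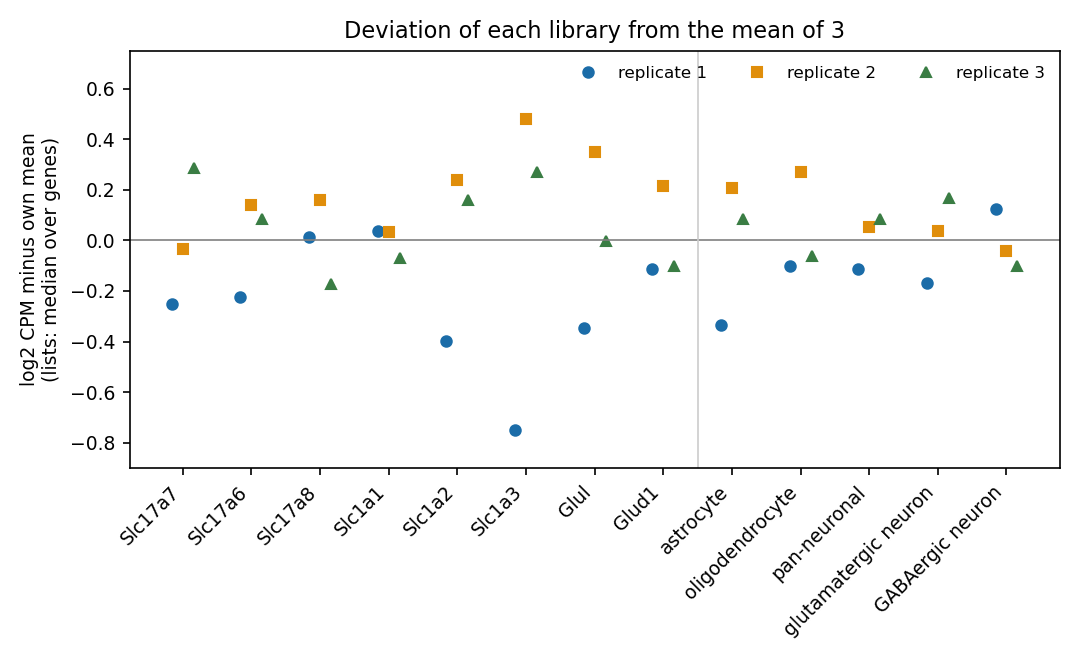
Deviation of each library from the mean of the 3 libraries in log2 CPM, for the 8 genes on the left and as the median over genes for 5 marker lists on the right. Points are libraries. Slc1a3, Slc1a2, Glul and the astrocyte list lie lowest in replicate 1, at -0.75, -0.40, -0.35 and -0.33. Slc17a7, Slc17a6, Glud1 and the glutamatergic, pan-neuronal and oligodendrocyte lists also lie lowest there, by less, whereas the GABAergic list lies highest there at 0.13.

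Neuronal lists had opposite orders of libraries. The median log2 deviation of glutamatergic neuron genes was -0.17 in replicate 1, 0.04 in replicate 2 and 0.17 in replicate 3, the order that Slc17a7 had at -0.25, -0.04 and 0.29, and 9 of the 10 tested were lowest in replicate 1. For GABAergic neuron genes it was 0.13, -0.04 and -0.10, with 1 of 10 lowest in replicate 1. The pan-neuronal list, at -0.11, 0.05 and 0.08, had 8 of 11 lowest there. Over all genes tested, 36.6% were lowest in replicate 1.

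Other glial and vascular lists were mostly highest in replicate 2. Of 10 oligodendrocyte genes 8 were detected, with sums of 611, 744 and 559 CPM, highest in replicate 2. The astrocyte sum was highest there too, as were Slc17a6, Slc17a8, Slc1a2, Slc1a3, Glul and Glud1. The 6 oligodendrocyte precursor genes summed to 66.5, 91.5 and 81.97 CPM, from Olig2 at 17.6 to Cspg4 at 9.29 CPM. The 9 microglia genes summed to 51.1, 78.6 and 79.1 CPM, from Csf1r at 19.8 to Tyrobp at 0.247 CPM. The 8 endothelial and mural genes summed to 17.3, 25.7 and 19.5 CPM, with Rgs5 highest at 8.10 CPM and Cldn5 lowest with 2 counts in all. The sums of all 4 lists of glial and vascular cells other than astrocytes were thus higher in replicate 2 than in replicate 1, and their part in the values of the 8 genes was not tested.

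Beyond the 8 genes, 30 other genes of glutamate and glutamine transport and metabolism were read from a list chosen by known function. Of these 24 were detected, against 37.3% of all 32531 rows and 64.9% of the genes with a read. Of the 25 tested, none passed the edgeR test after adjustment, against 0.0879% of all genes tested. At an unadjusted p under 0.05 the same test passed 1 of the 25, against 5.72% of all genes tested. That gene was Slc7a11, the cystine-glutamate exchanger, with 14.1, 23.2 and 28.8 CPM. The median over all 30 listed genes, tested or not, was 4.20 CPM per kb. The 4.52 CPM per kb over all genes tested leaves out genes below the count filter, so these 2 medians are of unlike sets.

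Gls2, which encodes an enzyme of glutamine breakdown best known from liver, had 3.12, 3.29 and 2.71 CPM per kb, with little difference between the libraries. The glutamine carriers spread over a wide range of levels. Slc38a1, a carrier that loads neurons with glutamine, averaged 23.4 ± 0.968 CPM per kb, and Slc38a2, a general system A carrier, averaged 17.9 ± 2.57. Slc38a3, the glutamine exporter of astrocytes, averaged 1.11 ± 0.224 CPM per kb, so that Slc38a1 lay 21.3-fold above it in 3 of 3 libraries. Among the glutamate carriers, Slc1a2, mainly astrocytic but also present in some axon terminals, lay 3.69-fold above the neuronal Slc1a1 in 3 of 3 libraries. This log2 ratio of 1.89 ± 0.38 was 0.95 with the longest coding transcript as divisor and 2.55 with no division by length. Slc1a3, also a carrier of cortical astrocytes, went the other way, and Slc1a1 lay 3.54-fold above it in 3 of 3 libraries. Slc38a7 was at 2.20 ± 0.441 and Slc38a6 at 0.395 ± 0.224 CPM per kb, and Slc38a5 had 0 counts. Of the remaining SLC1 genes, the neutral amino acid carrier Slc1a4 averaged 8.84 ± 0.457 CPM per kb, and Slc1a1 lay 3.05-fold above it in 3 of 3 libraries. With no division by length Slc1a1 and Slc1a4 averaged 223 and 34.7 CPM, a wider gap. Slc1a5 had 8, 4 and 2 counts, Slc1a6, the carrier of cerebellar Purkinje cells, had 8, 13 and 8, and Slc1a7 had 0.

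Aminotransferases exchange amino groups between glutamate and other acids. Got1, the cytosolic aspartate aminotransferase, had 517, 476 and 475 CPM per kb, with a mean of 489.5 ± 24.1. Got1 was above Glul per kilobase in replicates 1 and 3 and below it in replicate 2, so the order of these 2 genes was not the same in all libraries. The mitochondrial enzyme Got2 averaged 11.5 ± 1.32, so Got1 lay 42.8-fold above it in 3 of 3 libraries. With no division by length Got1 and Got2 averaged 1243 and 55.4 CPM, a narrower gap. Bcat1, the cytosolic branched-chain aminotransferase, averaged 17.4 ± 2.56, Oat, which uses ornithine, averaged 33.04 ± 5.40, and the alanine aminotransferase Gpt2 averaged 7.77 ± 0.253 CPM per kb.

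Mitochondrial carriers covered a wide range of levels. Slc25a12, the aspartate-glutamate carrier of neurons, averaged 41.7 ± 1.93 CPM per kb, and Slc25a11, the oxoglutarate carrier, averaged 31.2 ± 2.38. The glutamate carrier Slc25a22 averaged 11.6 ± 0.632 and lay 2.28-fold above its relative Slc25a18 (log2 ratio 1.19 ± 0.37, in 3 of 3 libraries). Arl6ip5, a binding partner that restrains EAAC1, averaged 13.6 ± 3.96, and Aldh18a1, which starts proline synthesis from glutamate, averaged 4.74 ± 0.890 CPM per kb.

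**Figure D4:**
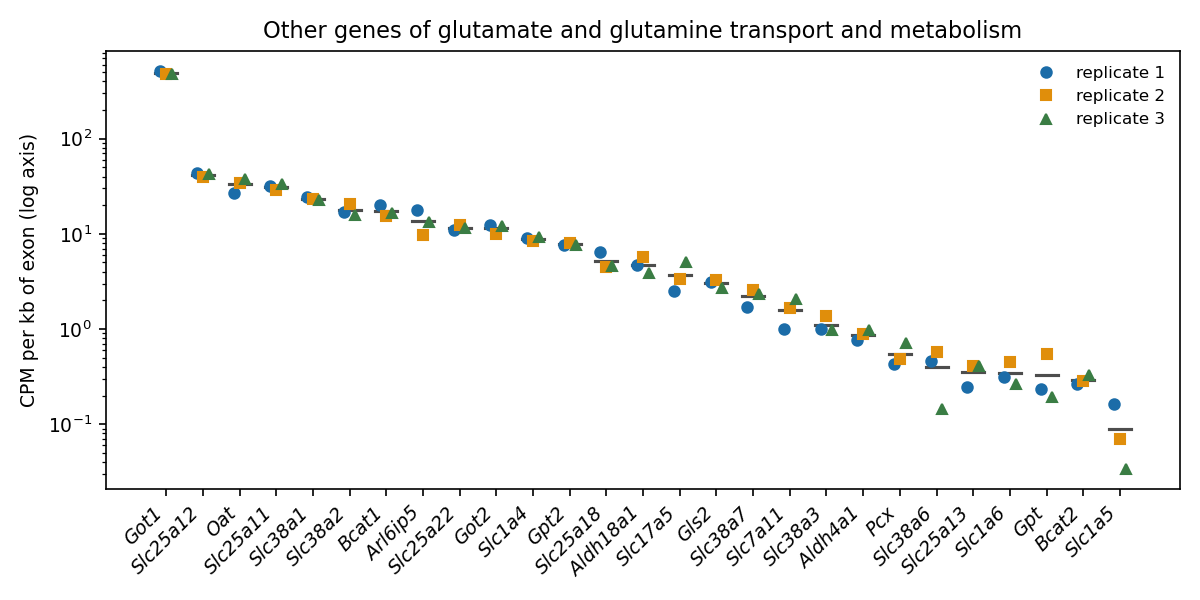
CPM per kb of exon on a log axis for 27 of the 28 other genes of glutamate and glutamine transport and metabolism that had a read, ordered by their mean. Points are single libraries and horizontal bars are means. Got1, at a mean of 489.5, lies above all other genes drawn, and 2 further genes of the list, Slc38a5 and Slc1a7, had 0 counts and are not drawn.

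The genes whose pattern over the 3 libraries was most like each member were found by the Euclidean distance between log2 deviations from the own mean, among the 3609 or 3610 genes with a mean of at least 50 CPM, which is a description over 3 libraries only. For Slc1a3 they were Cpne5, Pcdhgc5 and Wfs1, at distances of 0.111, 0.230 and 0.231. For Slc1a2 they were Dnmt1, Dpy19l1 and Epha4, and for Glul they were Cntn2, Sez6 and Foxo1, all within 0.0355. Slc1a2 and Glul were each other's nearest among the 8 genes, at 0.203, but 193 other genes lay closer to Slc1a2 and 89 closer to Glul. For Slc17a7 the nearest were Megf9, Acadsb and Sppl2a, for Slc17a6 they were Golgb1, Rbm25 and Ssr1, and for Slc17a8 they were Ddah1, Dap3 and Zcchc14. For Slc1a1 they were Rasa1, Stk39 and Epg5, and for Glud1 they were Cacng7, Prrt1 and Ccdc97. With 3 libraries many genes share any given pattern, and Slc1a3 alone had no gene within 0.1.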

How the data were processed

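The authors deposited raw counts of reads per gene symbol for each of the 3 libraries. STAR 2.0.0e, HTSeq and the mm10 build are named in the submitters' processing notes, and neither the counting mode, the strand setting nor the annotation release is stated. Reads outside genes did not enter the library sizes. In replicates 1, 2 and 3, 16.4%, 14.2% and 12.8% of tallied reads lay outside features, and 2.37% to 2.65% were ambiguous. Those that did not align uniquely were 19.4%, 15.8% and 13.8%, which left 61.9%, 67.6% and 70.7% in genes. Replicate 1 thus had the lowest share in genes and the lowest depth. The part of this in the values of replicate 1 was not tested. Every pair of libraries differed beyond sampling noise (chi-square per degree of freedom 12.3 to 28.5).

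The 8 genes and all lists were chosen with earlier results of these data known. Computed from the counts were CPM with TMM factors (edgeR 4.0.16, R 4.3.3), log2 CPM with a prior count of 2, CPM per kb of union exon (GENCODE M21; lengths for 96.8% of genes tested), exact sign-flip tests of log2 ratios, and an intercept-only robust glmQLFit on genes past filterByExpr (minimum count 10), whose quasi-dispersion ratio was tested with Benjamini-Hochberg adjustment at 0.05. The test of variation between libraries was tried on simulated counts with 1 library changed 4-fold or 8-fold, and smaller changes were not simulated. DESeq2 1.42.0 was an alternative. Named genes are the 8 members, pathway genes at 10 CPM or more in all libraries, glutamine-degrading enzymes, glutamine carriers and SLC1 genes, the highest and lowest gene of each marker list and the 3 genes most like each member. Some genes that this rule selects are not reported here. Genes named outside it, chosen after their values were seen, are Atp1b2, Gfap, Slc25a18, Gad1, Gad2, Slc32a1, Fev, Tph2, Ddc, Slc18a2, Glns-ps1 and 4430402I18Rik.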

Additional observations from a re-analysis of the deposited data

How the results depend on the processing

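No paired analysis was possible because the series has 1 group. With 5 CPM in place of 1 as the limit of detection, 7 of the 8 genes and 20 of the 30 pathway genes were detected, Slc17a8 being the gene lost. With 1 replicate left out, 8 of 8 and 24 to 25 of 30 were detected and the mean summed astrocyte level was 1173 to 1439 CPM. The count of genes that varied between libraries, 11, was 4 to 9 with 1 replicate left out, 66 without the count filter, 5 without robust moderation and 26 by DESeq2's outlier flag. The count among the 8 genes, 0, was 0 to 1 with 1 replicate left out, 1 without the filter and 1 by DESeq2, each time Slc1a3. With the longest coding transcript as divisor, Slc17a7 made up 93.5% of vesicular transporters and Slc1a2 60.0% of carriers; with no division by length, Slc1a2 made up 81.7% and Glul 76.7% of the enzymes. The mean log2 ratio of Slc1a2 over Glud1 was -0.0357 without replicate 3, up to 0.236 without replicate 1, -0.0389 with the longest transcript and, beyond its spread, 1.74 with no division by length, and that of Glul over Slc1a2 was -0.00994 with no division by length. The divisor sets each length-dependent value by construction. Folds that involve a pathway gene were computed with the exon union alone. The cause of the other changes was not tested. The 3 libraries, no input and unknown strand limit what these levels show, and at 39 to 50 counts Slc17a8 is limited by counting error.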
